A study of Mus musculus with 9 samples.

Results

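The type I interferon response genes are described here as 46 genes of the 54532 in the deposited count table, all of them antiviral effectors, sensors or transcription factors that interferon switches on. The members were chosen by name from an interferon list that had been seen to differ between the groups in these same 9 libraries, so every difference between the groups is given as a description and supports nothing. All 46 names were in the table and all 46 passed the filter on low counts. Interferons are secreted proteins that cells release when sensors in the cytosol or in endosomes meet viral or displaced nucleic acid. They bind the receptor Ifnar1 and Ifnar2, and the kinases Jak1 and Tyk2 then activate transcription factors, among them Stat2, which joins Irf9 to bind the interferon-stimulated response element in the promoters of many genes. In the brain, microglia, astrocytes, endothelium, choroid plexus and neurons can all switch these genes on, and a low basal level is present without infection.

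The libraries came from the hippocampus of 9 mice of the N4 Ube3am-/p+ strain, a model of Angelman syndrome in which the maternal copy of the ubiquitin ligase gene Ube3a is mutated and the line was backcrossed for 4 generations to a 129Sv/Ev background. The Ant-134 group was 5 mice given 0.5 nmol of Ant-134, an LNA-modified oligonucleotide against the microRNA miR-134, by injection into a cerebral ventricle. The Scr group was 4 mice given a scrambled oligonucleotide of the same kind at the same dose. Mice of both groups were exposed repeatedly to a seizure-inducing sound before the tissue was taken. In the paper's main seizure experiment at this dose, mice were injected at postnatal day 21, tested 3 times and sampled at day 27. The paper's RNA-seq methods do not state the ages of the sequenced mice, and other seizure experiments of the paper ran to older ages. Both groups therefore shared the Ube3a mutation, an injected oligonucleotide and the sound tests, and libraries from uninjected, untested or wild-type mice were not analysed here. They need not have shared the seizures, since the paper reports milder seizures and a tendency to better survival in Ant-134 mice. The seizures of the sequenced mice are not given in the sources used here, so treatment, seizure severity and survival cannot be told apart. The sex of each mouse is not given in the sources used here. The question put to the data was how the interferon response genes stood in each library, since the group means hide most of the variation.

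Each library held between 28583298 and 41978113 counts, and every member had between 19 and 3410 counts in every library. The level of a gene is its CPM, the count scaled by the TMM-adjusted library total, which allows a gene to be compared between libraries. Between genes, levels were compared per length as the authors' FPKM, and on that scale the members ran from 0.305 for Oas3 to 96.6 for Ifitm3, with a median of 2.26 beside 3.39 over the 19782 genes tested. Neuron and hippocampal principal cell markers were detected in every library. Several libraries stood apart from the rest. The summed level of 6 choroid plexus markers, which include Ttr, was 2551 CPM in Ant-134 replicate 1 and 2008 CPM in Scr replicate 3, and between 67.4 and 1068 CPM in the other 7 libraries. The summed level of 5 erythrocyte markers was 403 CPM in Ant-134 replicate 3 and between 44.0 and 116 CPM elsewhere, and that of 7 monocyte and neutrophil markers was 18.3 CPM in Ant-134 replicate 3 and between 40.2 and 54.97 CPM elsewhere.

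The agent and the response element can be shown as sequence. The target of Ant-134 is the mature strand miR-134-5p, printed here 5′ to 3′ with its seed, bases 2 to 8, in capitals, from RefSeq on build GRCm38.p6 at chr12:109734145-109734166 on the plus strand.
miR-134-5p: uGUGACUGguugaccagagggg

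The response element was searched as GAAA NN GAAA, with no gap and any base at each N, on both strands of the RefSeq promoters of build GRCm38.p6, from 250 bases before to 50 bases after each start. Of the 46 members, 35 had a promoter in that table, and 16 of these, 45.7%, held the letters. Of the 27025 genes searched, called all genes here, 3.99% did. Promoters of a chromosome that holds none of the members were left out of the search. With a further C, as GAAA NN GAAAC, the shares were 37.1% of the members and 0.944% of all genes. Counting only the 250 bases before the start, 31.4% of the members and 3.46% of all genes held GAAA NN GAAA. A match is a description of the letters and was not taken as a site in use. The windows below show 1 match of each member whose levels are given in every library and whose promoter held the letters, and of Ifit3b, whose window is set beside that of Ifit3. They have the matched 10 bases in capitals and up to 10 bases on either side, each written 5′ to 3′ on the strand that carries the letters.
Isg15, chr4:156200877-156200906, minus strand: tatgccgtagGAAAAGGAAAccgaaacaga
Ifit1, chr19:34640775-34640804, minus strand: actgagactgGAAAGTGAAActgaagcctg
Ifit3, chr19:34583397-34583426, minus strand: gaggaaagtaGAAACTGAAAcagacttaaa
Ifit3b, chr19:34607793-34607822, minus strand: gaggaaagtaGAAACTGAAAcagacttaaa
Ddx58, chr4:40239804-40239833, plus strand: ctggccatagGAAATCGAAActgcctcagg
Ifih1, chr2:62646206-62646233, minus strand: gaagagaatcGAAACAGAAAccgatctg
Ddx60, chr8:61928058-61928087, plus strand: gagcagaagaGAAACCGAAActatccttca
Stat2, chr10:128270266-128270295, minus strand: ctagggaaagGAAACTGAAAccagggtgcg
Eif2ak2, chr17:78882535-78882564, minus strand: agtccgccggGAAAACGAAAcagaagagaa
Bst2, chr8:71537583-71537612, minus strand: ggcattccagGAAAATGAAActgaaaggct
Ifitm3, chr7:141010706-141010735, minus strand: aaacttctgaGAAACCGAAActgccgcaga
Trim30a, chr7:104465210-104465239, plus strand: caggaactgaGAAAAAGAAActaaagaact

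The Isg15 match began 78 bases before the start and was followed by overlapping matches at 72 and 66 bases. Those of Ifit1, Ddx60, Stat2, Bst2 and Trim30a began 104, 19, 222, 130 and 36 bases before the start. The matches of Ddx58, Eif2ak2, Ifitm3 and Ifih1 lay 2, 18, 19 and 32 bases after the start, within the transcribed part. The windows of Ifit3 and Ifit3b, neighbours on chromosome 19, held the same letters, which were 122 bases before the start of Ifit3 and 154 bases before that of Ifit3b. The members were not scattered evenly over the genome, since 18 of them lay in 7 clusters with gaps under 200000 bases. These were the Ifit genes, the Oas genes, Oasl1 with Oasl2, Mx1 with Mx2, Parp14 with Dtx3l and Parp9, Rsad2 with Cmpk2, and Ifi27 with Ifi27l2a.

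The members varied far more among the Ant-134 libraries than among the Scr libraries. Ant-134 replicate 1 had the highest level of all 9 libraries in 39 of the 46 members, against 9.6% of all genes tested, and the highest level of its group in 45, against 17.3% of all genes. The exception within the group was Oas3, which was at 2.26 CPM in Ant-134 replicate 4, the highest of its group in 24.3% of all genes, and 2.22 CPM in Ant-134 replicate 1. Ant-134 replicate 3 had the lowest level of all 9 libraries in 31 members, against 12.7% of all genes. Of the remaining members, 10 were lowest in Ant-134 replicate 5, against 14.7% of all genes, 4 in Ant-134 replicate 2, against 6.83%, and 1, Dtx3l, in Scr replicate 3, against 13.8%. Most members therefore had their highest and their lowest level inside the same treatment group.

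A level for each library was taken as the median, over the 46 members, of the log2 CPM minus the mean of the 9 libraries. It was 0.72 in Ant-134 replicate 1, -0.36 in replicate 2, -0.84 in replicate 3, -0.10 in replicate 4 and -0.56 in replicate 5. In Scr replicates 1 to 4 it was 0.41, 0.22, 0.14 and 0.24. Ant-134 replicate 1 thus stood above the 4 Scr libraries and the other 4 Ant-134 libraries stood below them, on a log2 scale. The summed CPM of the members gave the same picture, with 1031 CPM in Ant-134 replicate 1, 465, 363, 526 and 407 CPM in Ant-134 replicates 2 to 5, and 784, 716, 701 and 704 CPM in Scr replicates 1 to 4. In Ant-134 replicate 1, 39 members were higher than in every Scr library. In Ant-134 replicates 2, 3, 4 and 5, 39, 44, 30 and 39 members were lower than in every Scr library. The share of all genes was not counted for single libraries, so these counts have no background. At least 4 of the 5 Ant-134 libraries were below every Scr library in 29 members and in 4.5% of all genes. Since the tissue was bulk hippocampus, fewer cells that express these genes and less of their RNA per cell cannot be told apart.

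**Figure D1:**
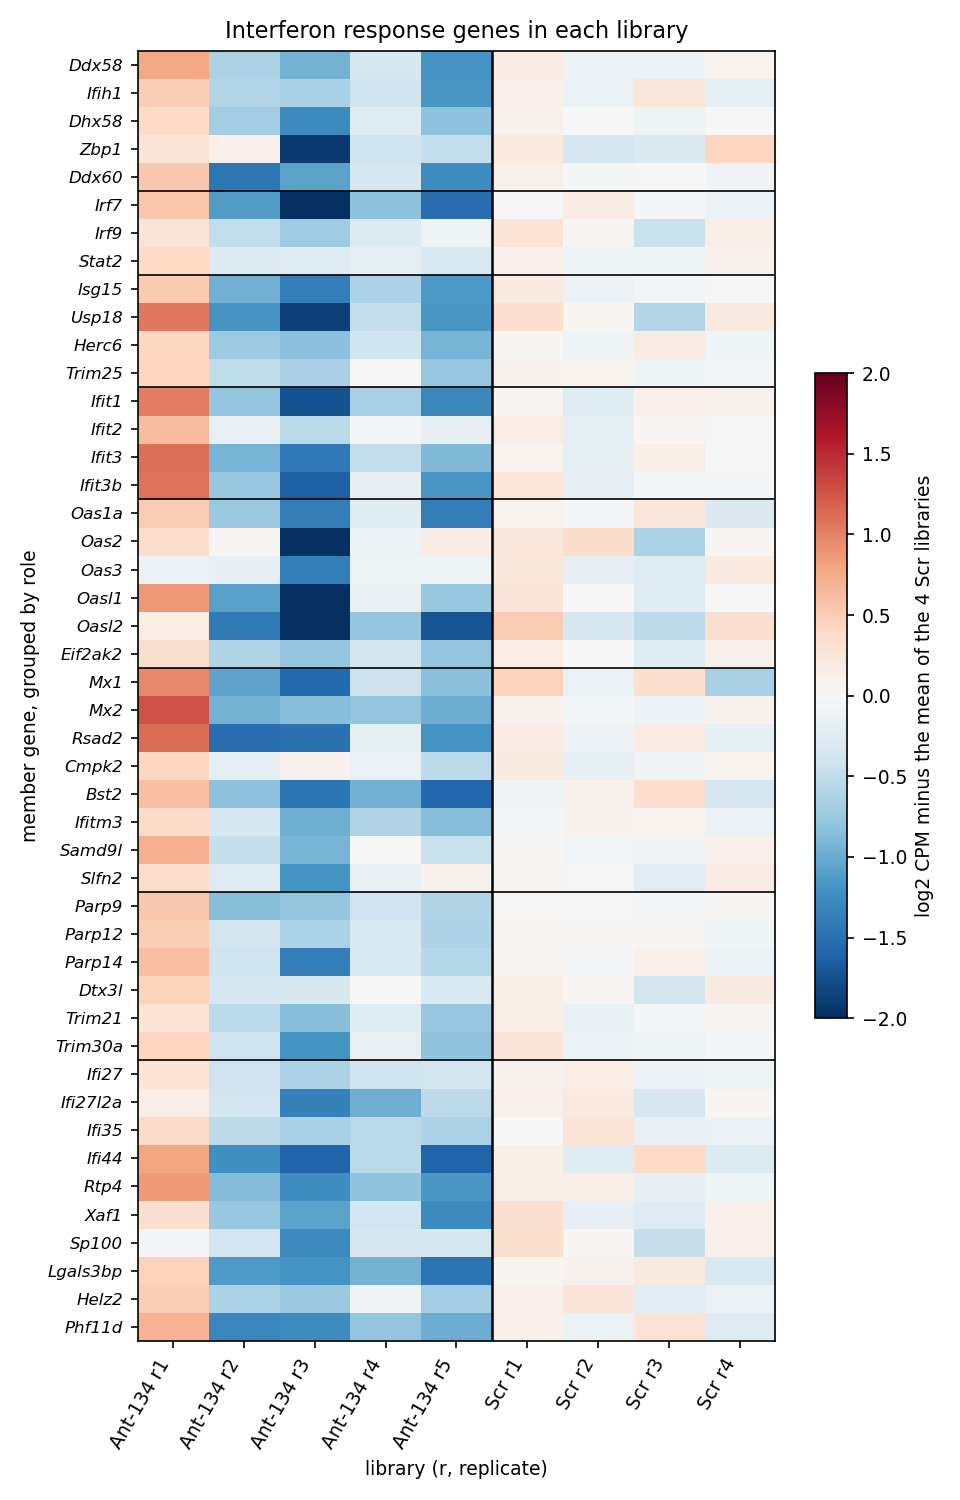
Log2 CPM of each of the 46 members (rows, grouped by role with lines between roles) in each of the 9 libraries (columns), minus the mean of the 4 Scr libraries, with red for higher and blue for lower. The column of Ant-134 replicate 1 is red in most rows and the other Ant-134 columns are mostly blue, while the Scr columns are pale.

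The spread within the groups can be put in numbers. The SD of log2 CPM had a median over the members of 0.63 in Ant-134 and 0.17 in Scr, and over all genes tested it was 0.15 and 0.13. All 46 members had a larger SD in Ant-134 than in Scr, against 57.7% of all genes. The highest Ant-134 library exceeded the lowest by between 1.62-fold and 8.65-fold, with a median of 3.16-fold, and in Scr the same ratio was between 1.05-fold and 2.17-fold, with a median of 1.29-fold. The 16 members with GAAA NN GAAA in the promoter had a median ratio of 3.73-fold in Ant-134, the 19 without it 2.53-fold, and the 11 that had no RefSeq promoter here 4.26-fold. This comparison of promoters is a description over genes that share the same 9 libraries.

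Over the groups as a whole, 0 members were lower and 0 were higher in Ant-134 in edgeR's quasi-likelihood test, which was not the study's test. The threshold was the study's, an unadjusted p below 0.05, and called means below that a gene passed it in edgeR. The background at that threshold was 2.69% of the 19782 genes lower and 1.49% higher, and 0 genes passed after adjustment. In DESeq2, the test the study used, 2 members, Oasl2 and Sp100, were lower at an unadjusted p below 0.05, and 0 members passed adjustment. Over the 37435 genes of that fit, which were not filtered on low counts, the shares were 1.66% and 0.0427%. That set is wider than the 19782 genes of edgeR, so its shares are not comparable with those of edgeR. With the level of Y-linked genes as a covariate, 12 members were lower, against 3.2% of genes, and the median log2 fold change over all 46 members was -0.50. With the replicate number as a block, in which Ant-134 replicate 5 had no partner, 6 members were lower, against 2.36% of genes. All 46 fitted log2 fold changes of Ant-134 over Scr were below 0, as were 48.8% of all genes, a direction that the choice of members could fix. Their median was -0.34 beside 0.0026 over all genes tested, and they ran from -1.005 for Oasl2 to -0.0024 for Ifit2. Beside each log2 fold change the sign ± gives the standard error (SE) of the fit. No member had every Ant-134 library below every Scr library, against 0.895% of all genes, but 29 members had 4 of the 5 below every Scr library, against 4.5% of all genes with at least 4. In all 29 the exception was Ant-134 replicate 1.

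Because 1 library decided these counts, the fit was repeated with each library left out. Without Ant-134 replicate 1, 39 of the 46 members were lower at an unadjusted p below 0.05, against 3.6% of the 19581 genes then tested, and the median log2 fold change was -0.69. In that fit 34 members were below -0.5 and 10 below -1. After adjustment 5 members, Isg15, Mx2, Rtp4, Lgals3bp and Ifi27, were among the 17 genes that passed, which was 0.0868% of the genes tested. Rtp4 shares 12.4% of its 75-base windows with the overlapping transcript Gm45338 and also overlaps Masp1 on the opposite strand, so its counts are uncertain. The 7 members not called were Zbp1, Ifit2, Oas2, Oas3, Cmpk2, Slfn2 and Dtx3l. Without Scr replicate 3, 2 members, Ifi27l2a and Sp100, were called lower, and without any of the other 7 libraries 0 members were called. Without Ant-134 replicate 3 the median log2 fold change was -0.17. These counts describe the members and are no test of them, since each library was left out in turn and this one is described for the levels seen in it.

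**Figure D2:**
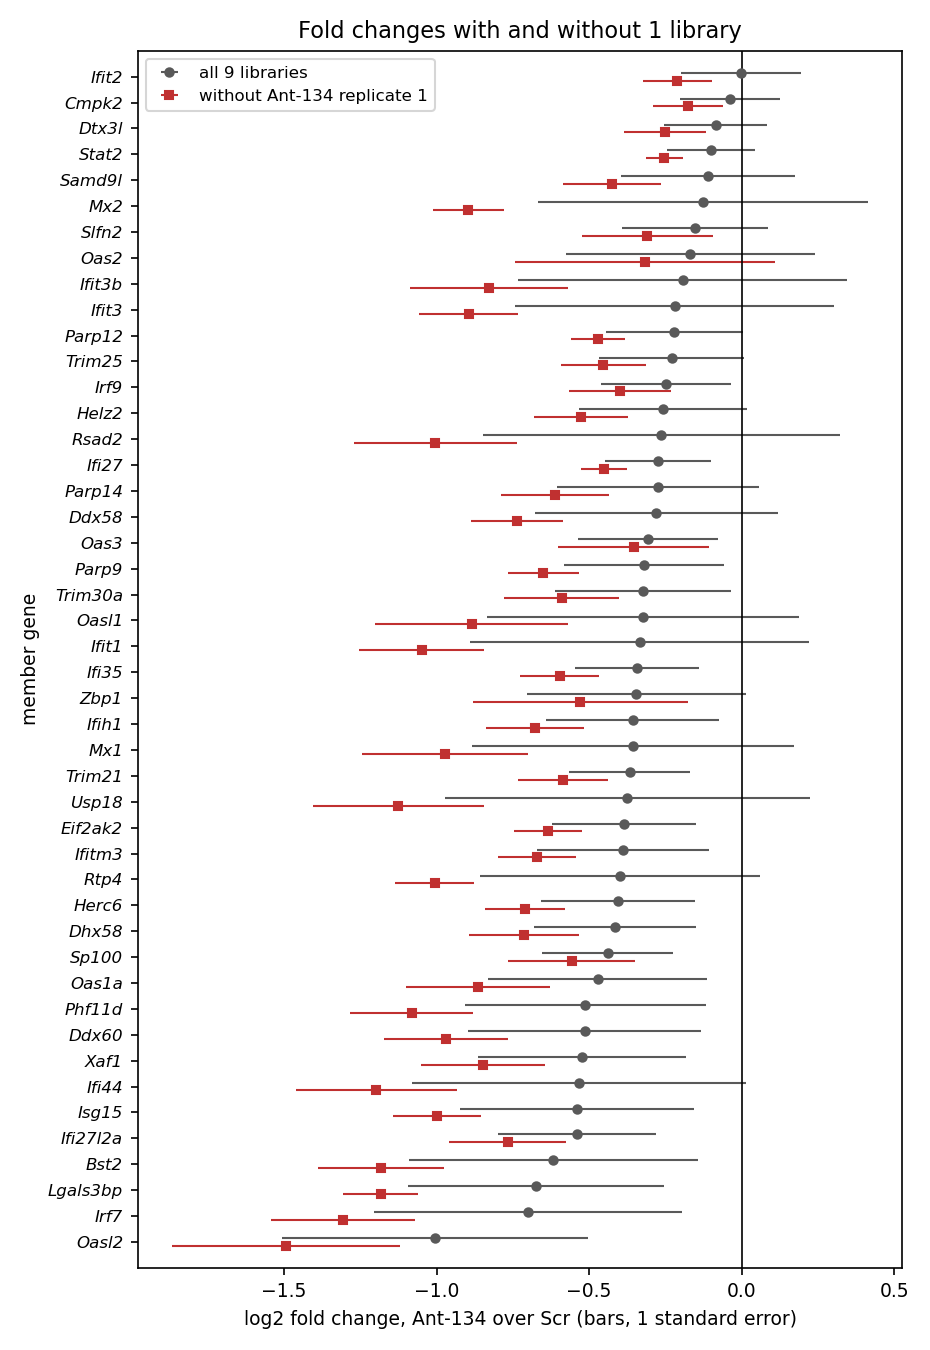
Fitted log2 fold change of Ant-134 over Scr for each member, with all 9 libraries (grey circles) and without Ant-134 replicate 1 (red squares), and bars of 1 standard error on either side. Every red square lies to the left of its grey circle, with medians of -0.34 for the circles and -0.69 for the squares.

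The sensors were Ddx58, Ifih1, Dhx58, Zbp1 and Ddx60, and their median log2 fold change was -0.36 with all libraries and -0.71 without Ant-134 replicate 1. Ddx58, which encodes the RNA sensor RIG-I (ENSMUSG00000040296, chr4:40203773-40239828), was at 23.5, 8.84, 7.12, 10.8 and 6.06 CPM in Ant-134 replicates 1 to 5 and 15.3, 12.6, 12.6 and 14.3 CPM in Scr replicates 1 to 4. Its level in Ant-134 replicate 1 was above every other library and its level in the other 4 was below every Scr library. The group means were 11.2 ± 7.06 CPM (SD, n = 5) against 13.7 ± 1.31 CPM (SD, n = 4), and the log2 fold change was -0.28 ± 0.40 with all libraries and -0.74 ± 0.15 without Ant-134 replicate 1. Ifih1, the sensor MDA5 for long double-stranded RNA, was at 9.78, 4.63, 4.45, 5.27 and 3.11 CPM in Ant-134 replicates 1 to 5 and 7.43, 6.31, 8.18 and 6.06 CPM in Scr replicates 1 to 4. Ddx60, a helicase that acts with RIG-I, was at 7.13, 1.82, 2.35, 3.90 and 2.05 CPM in Ant-134 replicates 1 to 5 and 5.27, 4.80, 4.96 and 4.72 CPM in Scr replicates 1 to 4. Both had the order seen in Ddx58, with 1 Ant-134 library above and 4 below the Scr libraries, and their log2 fold changes were -0.36 ± 0.28 and -0.52 ± 0.38 (SE). Zbp1, a sensor of left-handed nucleic acid, departed from this order, since its highest level was 5.77 CPM in Scr replicate 4 and its lowest 1.14 CPM in Ant-134 replicate 3.

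The transcription factors were Stat2, Irf7 and Irf9, and their median log2 fold change was -0.25 with all libraries and -0.40 without Ant-134 replicate 1. Stat2 (ENSMUSG00000040033, chr10:128270559-128292849) is part of the complex that binds the response element. It was at 60.7, 38.4, 38.7, 40.9 and 37.4 CPM in Ant-134 replicates 1 to 5 and 49.6, 43.5, 43.4 and 48.9 CPM in Scr replicates 1 to 4. Ant-134 replicate 1 was the highest of the 9 libraries, the other 4 Ant-134 libraries lay between 37.4 and 40.9 CPM, below every Scr library, and the log2 fold change was -0.10 ± 0.14 with all libraries and -0.25 ± 0.061 without Ant-134 replicate 1. Irf7, the factor that amplifies interferon production, was at 52.01, 16.3, 8.58, 20.1 and 12.4 CPM in Ant-134 replicates 1 to 5 and 35.5, 39.8, 34.5 and 32.7 CPM in Scr replicates 1 to 4. Its Ant-134 libraries spanned 6.06-fold against 1.22-fold in Scr, and its log2 fold change was -0.70 ± 0.50 with all libraries and -1.31 ± 0.24 without Ant-134 replicate 1. Irf9, the DNA-binding partner of Stat2, was at 30.3, 18.04, 15.6, 20.99 and 23.6 CPM in Ant-134 replicates 1 to 5 and 30.6, 26.1, 18.7 and 27.8 CPM in Scr replicates 1 to 4. Its highest level was in Scr replicate 1 and its groups overlapped, with 2 Ant-134 libraries below every Scr library. Irf9 overlaps Rnf31 and Irf7 overlaps Phrf1 in the annotation, and whether the counting used strand is not given in the sources used here.

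Isg15 is a ubiquitin-like protein that is attached to other proteins, Herc6 is its ligase in mice, Usp18 removes it, and Trim25 is a ligase that modifies RIG-I. The median log2 fold change of these 4 genes was -0.39 with all libraries and -0.85 without Ant-134 replicate 1. Isg15 (ENSMUSG00000035692, chr4:156199424-156200818) was at 15.5, 5.56, 4.13, 7.07 and 4.86 CPM in Ant-134 replicates 1 to 5 and 12.3, 9.95, 10.4 and 10.7 CPM in Scr replicates 1 to 4. Usp18, which also damps signalling at the interferon receptor, was at 17.8, 3.79, 2.35, 6.16 and 3.84 CPM in Ant-134 replicates 1 to 5 and 10.8, 8.87, 5.75 and 9.87 CPM in Scr replicates 1 to 4. Isg15 had 4 Ant-134 libraries below and 1 above every Scr library, whereas Usp18 overlapped Scr in replicate 4. Usp18 spanned 7.56-fold within Ant-134, with its highest and lowest levels of all libraries in Ant-134 replicates 1 and 3. Trim25 was at 20.4, 10.7, 9.68, 15.2 and 9.0 CPM in Ant-134 replicates 1 to 5 and 16.1, 15.96, 14.2 and 14.7 CPM in Scr replicates 1 to 4. In Trim25, Ant-134 replicate 4 lay within the Scr range and replicates 2, 3 and 5 lay below it. The log2 fold change of Isg15 was -0.54 ± 0.38 with all libraries and -0.999 ± 0.15 without Ant-134 replicate 1. Of the bases of Herc6 read in windows of 75, 22.4% also occur in an overlapping transcript, so its counts are uncertain.

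The IFIT proteins bind foreign RNA and hinder its translation. Their genes lie together on chromosome 19, and Ifit3 and Ifit3b share 41.1% and 35.7% of their 75-base windows, so that reads could be divided between them or dropped. The median log2 fold change of the 4 genes was -0.21, and -0.86 without Ant-134 replicate 1. Ifit3 (ENSMUSG00000074896, chr19:34583531-34588731) was at 53.05, 13.05, 9.22, 17.7 and 13.4 CPM in Ant-134 replicates 1 to 5 and 25.9, 21.8, 27.04 and 24.6 CPM in Scr replicates 1 to 4. Ifit1 (ENSMUSG00000034459, chr19:34640871-34650009) was at 27.6, 7.90, 4.06, 8.68 and 5.56 CPM in Ant-134 replicates 1 to 5 and 14.1, 11.5, 14.5 and 14.4 CPM in Scr replicates 1 to 4. In both, Ant-134 replicate 1 was far above the Scr libraries and the other 4 Ant-134 libraries were below each of them. The log2 fold change of Ifit3 was -0.22 ± 0.52 with all libraries and -0.90 ± 0.16 without Ant-134 replicate 1, and that of Ifit1 was -0.33 ± 0.56 with all libraries and -1.05 ± 0.20 without Ant-134 replicate 1. Ifit2 was at 18.1, 10.7, 8.08, 11.4 and 10.6 CPM in Ant-134 replicates 1 to 5 and 13.01, 10.4, 12.1 and 11.7 CPM in Scr replicates 1 to 4. Its groups overlapped, with 1 Ant-134 library below every Scr library, and its log2 fold change of -0.0024 ± 0.20 (SE) turned positive in several of the alternatives. The level of the IFIT genes in Ant-134 replicate 1, as the median difference from the Scr mean on the log2 scale, was 1.05, and in the other roles this difference was between 0.34 and 0.66.

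**Figure D3:**
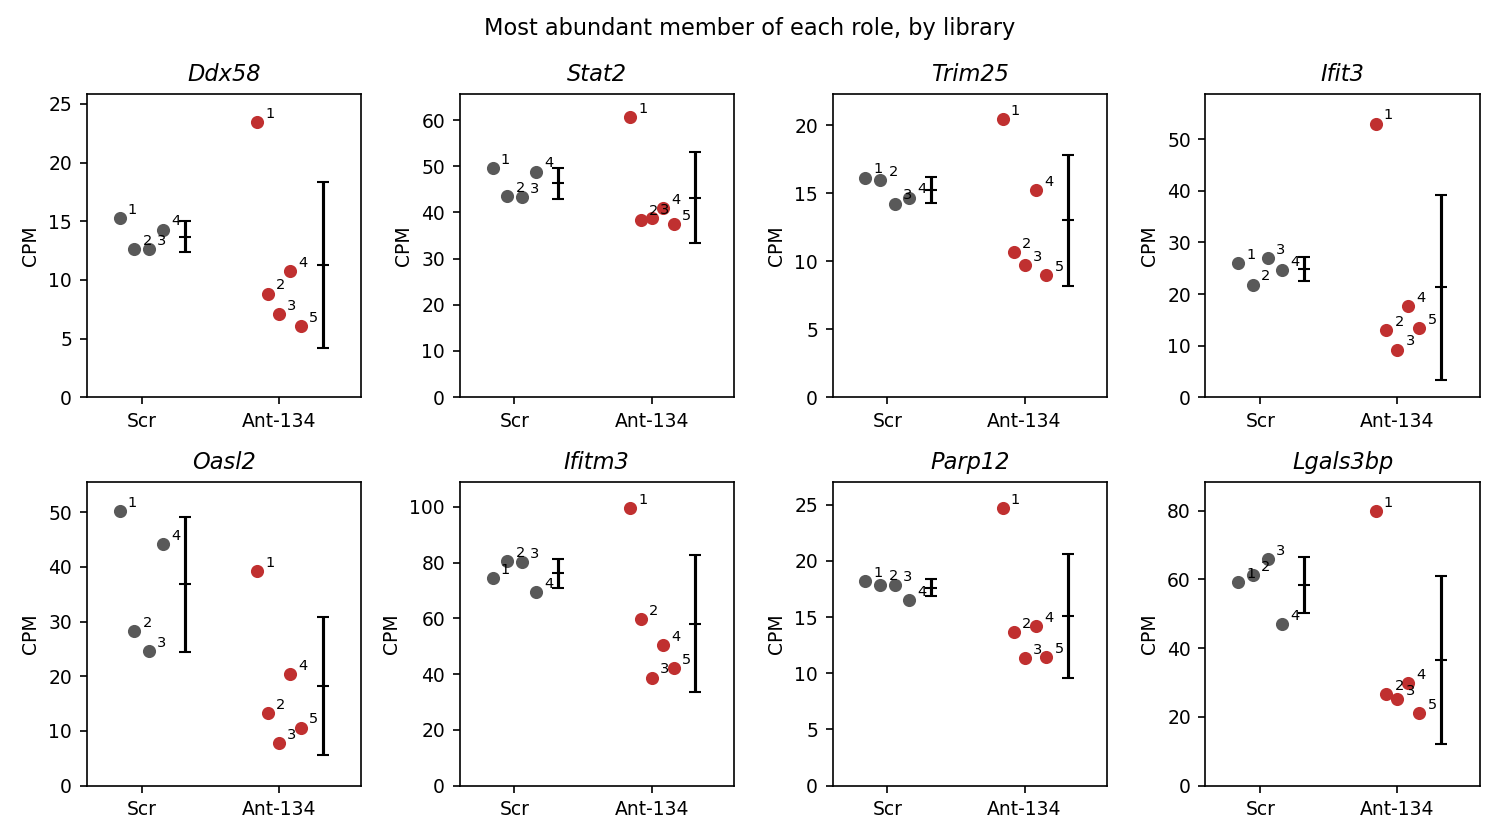
CPM of the member with the highest mean CPM in each of the 8 roles, with 1 point for each library labelled by its replicate number, and the group mean with 1 SD on either side beside the points. In 7 of the 8 genes Ant-134 replicate 1 is the highest point, and in Oasl2 it lies between the Scr libraries.

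The OAS enzymes make a messenger that activates an RNA-degrading enzyme, and Eif2ak2 encodes the kinase PKR, which stops translation. Oas1a, Oas2, Oas3, Oasl1, Oasl2 and Eif2ak2 had a median log2 fold change of -0.35 with all libraries and -0.75 without Ant-134 replicate 1. Oasl2 (ENSMUSG00000029561, chr5:114896936-114912234), an OAS-like protein, was at 39.2, 13.2, 7.79, 20.5 and 10.6 CPM in Ant-134 replicates 1 to 5 and 50.1, 28.2, 24.6 and 44.2 CPM in Scr replicates 1 to 4. Here the Scr libraries also differed from each other by 2.04-fold, and Ant-134 replicate 1 lay between them. Its log2 fold change was -1.005 ± 0.50 with all libraries and -1.49 ± 0.37 without Ant-134 replicate 1. Eif2ak2 was at 22.1, 11.6, 10.1, 13.7 and 10.2 CPM in Ant-134 replicates 1 to 5 and 19.6, 17.5, 14.8 and 18.8 CPM in Scr replicates 1 to 4, again with 4 Ant-134 libraries below and 1 above the Scr range. Oas2 was at 7.50, 5.95, 1.46, 5.37 and 6.55 CPM in Ant-134 replicates 1 to 5 and 6.89, 7.57, 3.75 and 5.97 CPM in Scr replicates 1 to 4, and in this gene the low library was Ant-134 replicate 3. Oas3 was likewise low there, at 0.925 CPM, while the other 4 libraries of that group had 2.16 to 2.26 CPM. Oasl1 had the widest Ant-134 ratio of all members at 8.65-fold, from 0.676 CPM in replicate 3 to 5.85 CPM in replicate 1. Oas1a shares 47.6% of its 75-base windows with the neighbouring Oas1g, and its level is uncertain for that reason.

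Mx1 and Mx2 encode GTPases that trap viral particles, Rsad2 encodes viperin, Cmpk2 a nucleotide kinase beside it on chromosome 12, and Bst2, Ifitm3, Samd9l and Slfn2 are further restriction or growth-limiting factors. Mx2 is annotated as a polymorphic pseudogene. The median log2 fold change of the 8 genes was -0.21, and -0.78 without Ant-134 replicate 1. Ifitm3 (ENSMUSG00000025492, chr7:141009586-141010770), a membrane protein that blocks viral entry, was at 99.5, 59.8, 38.8, 50.4 and 42.1 CPM in Ant-134 replicates 1 to 5 and 74.4, 80.6, 80.1 and 69.5 CPM in Scr replicates 1 to 4. Bst2, or tetherin, which holds budding particles at the cell surface, was at 46.5, 17.4, 11.1, 15.8 and 10.4 CPM in Ant-134 replicates 1 to 5 and 29.1, 32.5, 38.7 and 24.2 CPM in Scr replicates 1 to 4. Both had 4 Ant-134 libraries below and 1 above all Scr libraries. The log2 fold change of Ifitm3 was -0.39 ± 0.28 with all libraries and -0.67 ± 0.13 without Ant-134 replicate 1, and that of Bst2 was -0.62 ± 0.47 with all libraries and -1.18 ± 0.21 without Ant-134 replicate 1. Cmpk2 was at 31.6, 21.1, 25.1, 21.7 and 16.5 CPM in Ant-134 replicates 1 to 5 and 26.7, 21.04, 22.7 and 24.8 CPM in Scr replicates 1 to 4. Its groups overlapped, and its log2 fold change was -0.038 ± 0.17 with all libraries and -0.18 ± 0.11 without Ant-134 replicate 1. In Mx2 the 4 lower Ant-134 libraries lay between 3.34 and 3.86 CPM, the Scr libraries between 6.13 and 7.09 CPM and Ant-134 replicate 1 at 16.1 CPM. Samd9l and Slfn2 were both lowest in Ant-134 replicate 3, at 3.52 and 3.49 CPM. Rsad2 had the widest ratio of this role in Ant-134 at 6.26-fold.

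Parp9, Parp12 and Parp14 encode ADP-ribosyltransferases, Dtx3l is the partner of Parp9, Trim21 is a cytosolic antibody receptor and Trim30a limits signalling in mice. Their median log2 fold change was -0.30 with all libraries and -0.59 without Ant-134 replicate 1. Parp12 (ENSMUSG00000038507, chr6:39086410-39118349) was at 24.7, 13.7, 11.4, 14.2 and 11.4 CPM in Ant-134 replicates 1 to 5 and 18.2, 17.9, 17.8 and 16.5 CPM in Scr replicates 1 to 4. Parp14 was at 16.8, 8.29, 4.31, 8.94 and 7.45 CPM in Ant-134 replicates 1 to 5 and 11.5, 10.8, 11.9 and 10.3 CPM in Scr replicates 1 to 4. Trim30a was at 13.1, 7.30, 4.27, 8.81 and 5.56 CPM in Ant-134 replicates 1 to 5 and 11.6, 9.03, 9.12 and 9.46 CPM in Scr replicates 1 to 4. In all 3 genes Ant-134 replicate 1 was the highest library and the other 4 Ant-134 libraries were below every Scr library. The log2 fold change of Parp12 was -0.22 ± 0.22 with all libraries and -0.47 ± 0.088 without Ant-134 replicate 1. Dtx3l was the member with no Ant-134 library below every Scr library, and it overlaps Parp9 on the opposite strand.

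The remaining 10 members were Ifi27, Ifi27l2a, Ifi35, Ifi44, Rtp4, Xaf1, Sp100, Lgals3bp, Helz2 and Phf11d. Lgals3bp (ENSMUSG00000033880, chr11:118392751-118402092), a secreted glycoprotein, was at 79.9, 26.5, 25.3, 29.9 and 21.01 CPM in Ant-134 replicates 1 to 5 and 59.3, 61.3, 65.8 and 46.9 CPM in Scr replicates 1 to 4. The group means were 36.5 ± 24.5 CPM (SD, n = 5) against 58.3 ± 8.06 CPM (SD, n = 4), and the log2 fold change was -0.67 ± 0.42 with all libraries and -1.18 ± 0.12 without Ant-134 replicate 1. Ifi27, a mitochondrial protein whose gene is widely used in interferon signatures, was at 50.1, 30.9, 27.01, 31.1 and 32.03 CPM in Ant-134 replicates 1 to 5 and 43.6, 45.7, 37.9 and 38.4 CPM in Scr replicates 1 to 4. Xaf1, a protein linked to cell death, was at 33.5, 15.6, 12.6, 20.2 and 10.95 CPM in Ant-134 replicates 1 to 5 and 32.9, 23.7, 22.1 and 28.4 CPM in Scr replicates 1 to 4. In these 3 genes replicates 2 to 5 of Ant-134 were below every Scr library. The median log2 fold change of the 10 genes was -0.48 with all libraries and -0.81 without Ant-134 replicate 1, and in the latter fit all 10 were called lower. Ifi44 was at 26.9, 6.60, 5.13, 10.6 and 5.13 CPM in Ant-134 replicates 1 to 5 and 17.05, 13.1, 20.3 and 12.8 CPM in Scr replicates 1 to 4, and its groups were ordered like those of Lgals3bp. Sp100, a nuclear body protein, was highest in Scr replicate 1 at 9.21 CPM, and Ant-134 replicate 1 was within the Scr range at 7.28 CPM.

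Of the other genes of the pathway, 79 names were listed by role, 76 were in the table and 54 passed the filter. All 20 genes for type I and type III interferons were below the filter, 12 of them had 0 counts in every library, and the highest count of any of them in a library was 4. The ligands were thus not measurable at this depth. Ifnk, which had the highest mean of them, had counts in 3 libraries with at most 0.0712 CPM. The receptor genes Ifnar1 and Ifnar2 and the kinase genes Jak1 and Tyk2 were not called. Jak1 was at 155, 159.7, 156, 176 and 150.4 CPM in Ant-134 replicates 1 to 5 and 157, 145, 147 and 171 CPM in Scr replicates 1 to 4, which gave a log2 fold change of 0.041 ± 0.057 (SE). Ifngr2, a receptor chain for type II interferon, had a log2 fold change of 0.020 ± 0.049 (SE).

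In the same fit 7 of the 54 genes were lower in Ant-134 at an unadjusted p below 0.05 and 0 were higher, against 2.69% and 1.49% of all genes, and none passed adjustment. They were Unc93b1 and Ikbke, a carrier of endosomal receptors and a kinase upstream of interferon, with log2 fold changes of -0.36 ± 0.091 and -0.33 ± 0.15 (SE). Irf1, another interferon regulatory factor, and Ptpn6, a phosphatase of JAK-STAT signalling, had -0.28 ± 0.13 and -0.31 ± 0.11 (SE). Nlrc5, which drives class I antigen genes, Uba7, the activating enzyme of Isg15, and Psmb8, a subunit of the immunoproteasome, had -0.79 ± 0.34, -0.45 ± 0.18 and -0.56 ± 0.17 (SE). Unc93b1 was at 25.5, 27.2, 19.3, 20.8 and 21.9 CPM in Ant-134 replicates 1 to 5 and 31.7, 29.5, 28.9 and 27.5 CPM in Scr replicates 1 to 4. All its Ant-134 libraries were below every Scr library, and Ant-134 replicate 1 was not the highest of its group. Psmb8 was at 9.35, 6.91, 4.66, 6.16 and 5.33 CPM in Ant-134 replicates 1 to 5 and 8.96, 8.80, 9.94 and 10.6 CPM in Scr replicates 1 to 4, with Ant-134 replicate 1 within the Scr range. Ant-134 replicate 1 was the highest of the 9 libraries in 9 of the 54 genes, against 9.6% of all genes. The most abundant genes of the other roles were not called, with log2 fold changes of -0.014 ± 0.051 for Adar, an RNA-editing enzyme, 0.0065 ± 0.064 for Irf2, 0.0048 ± 0.041 for the phosphatase gene Ptpn11 and -0.014 ± 0.051 for Trafd1 (SE). The count of 7 became 17 without Ant-134 replicate 1. It became 4 when Ant-134 replicate 2 or 3, or Scr replicate 1, 3 or 4, was left out.

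The levels of cell type markers were set beside those of the members. All 18 microglia markers had log2 fold changes below 0, with a median of -0.18, and 7 of them were called lower, against 2.69% of all genes. Their summed level was between 599 and 640 CPM in Ant-134 and between 669 and 770 CPM in Scr. The lowest sum was in Ant-134 replicate 1, the library in which most members were highest. Of the 6 meningeal fibroblast markers 5 were called lower, with sums of 82.9 to 144 CPM in Ant-134 and 126 to 168 CPM in Scr. No marker of these lists was at 0 in every library. T cell markers summed to 3.66 to 5.23 CPM over all libraries, and 4 of the 8 did not pass the filter.

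The choroid plexus sum was highest in Ant-134 replicate 1. It was 2008 CPM in Scr replicate 3 and 78.5 CPM in Scr replicate 4, in which the level of the members was 0.14 and 0.24. With the log2 choroid plexus sum as a covariate, an alternative added after the data had been seen, 0 members were called lower and the median log2 fold change was -0.33. The summed level of 6 oligodendrocyte markers was also highest in Ant-134 replicate 1, at 12129 CPM, and was between 7252 and 11021 CPM elsewhere. Of 16026 genes with a mean of at least 1 CPM, the 100 with the largest excess of Ant-134 replicate 1 over the other Ant-134 libraries held 16 members, 2 genes of the pathway list, Cxcl10 and Nlrc5, and 82 other genes, among them the choroid plexus genes Ttr, Kl, Folr1, Otx2 and Aqp1. In Ant-134 replicate 3, in which most members were lowest, the erythrocyte sum was highest and the monocyte and neutrophil sum was lowest. The part of these cell types in the levels of the members was not tested.

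**Figure D4:**
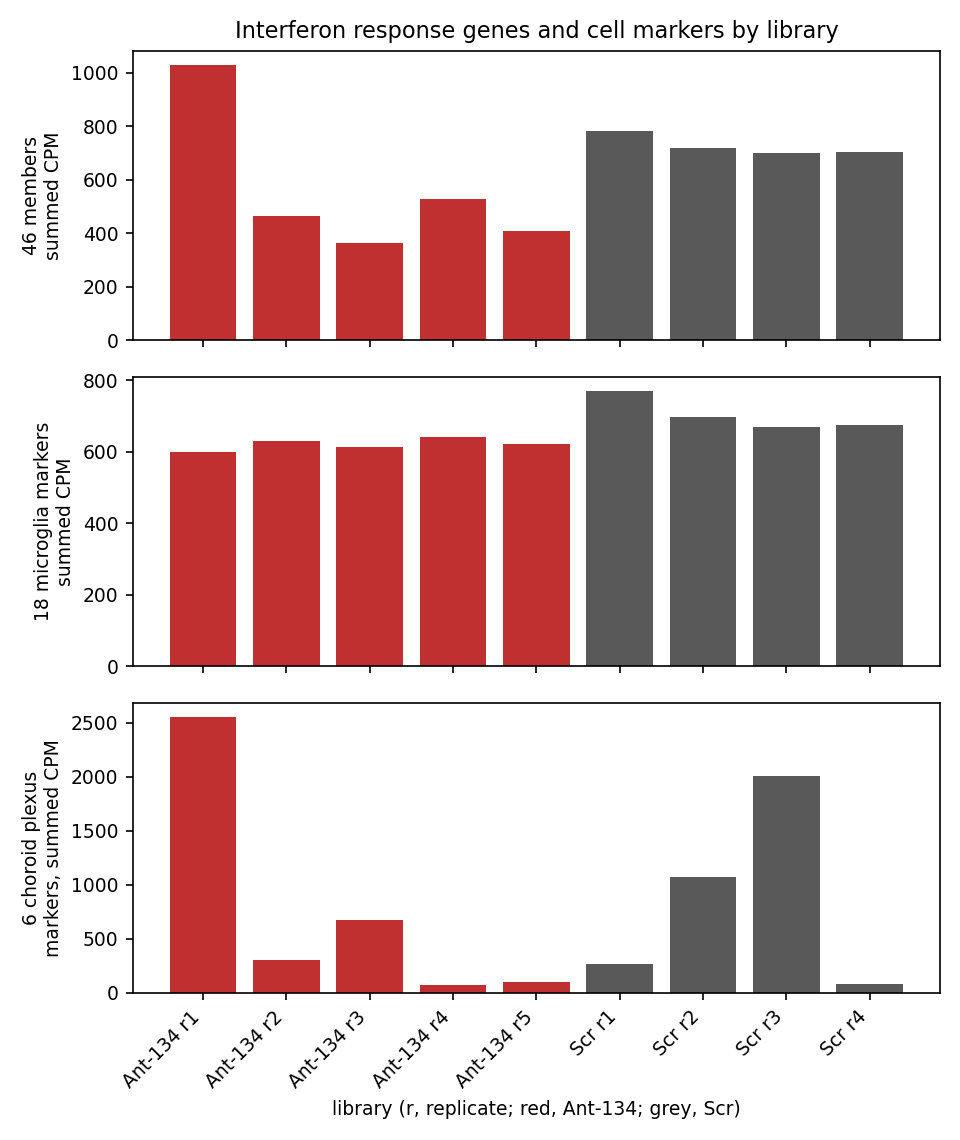
Summed CPM of the 46 members (top), of 18 microglia markers (middle) and of 6 choroid plexus markers (bottom) in each of the 9 libraries, with Ant-134 in red and Scr in grey. The member sum in Ant-134 replicate 1 is 1031 CPM and that in the other libraries is between 363 and 784 CPM, while the microglia sum of Ant-134 replicate 1 is the lowest at 599 CPM.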

How the data were processed

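RNA of 9 hippocampi, 5 from Ant-134 mice and 4 from Scr mice, was sequenced as paired-end poly-A libraries, 1 per mouse. The authors mapped the clean reads to GRCm38 (mm10) with HISAT2 2.0.5 and deposited counts per gene from featureCounts 1.5.0-p3, without normalization, together with FPKM values, which correct counts for gene length and depth. CASAVA 1.8 is also named in the submitters' processing notes. Whether the counting used strand is not given in the sources used here. Gene lengths, another unit of the deposited tables, were not used in any test.

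The counts were fitted with edgeR 4.0.16 in R 4.3.3 (filterByExpr with a minimum count of 10, TMM scaling, robust quasi-likelihood test, Ant-134 against Scr, no covariate). The study's threshold was used, an unadjusted p-value below 0.05, and Benjamini-Hochberg adjusted values were computed over all 19782 genes tested. CPM used the TMM-scaled totals, and log2 CPM a prior count of 2. The biological coefficient of variation was 11.9%. Library totals set the counting error, and reads copied by PCR cannot be told apart in these counts. No pair of libraries from the same group was within sampling noise, with chi-squares of 8.30 to 21.1 for each gene.

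Alternatives were DESeq2 1.42.0, its size factors in edgeR, genes unfiltered or filtered to 10 counts in all samples, a test without robust estimation, a block for the replicate number, Y-linked gene levels as covariate, and each library left out. FPKM values were tested with limma 3.58.1 as log2(FPKM + 1) or log2(FPKM + 0.1), over genes whose mean reached 0.1 or over all genes. Fold changes from these fits are on the log2(FPKM + pseudocount) scale, where a pseudocount of 1 shrinks the change of low genes. A covariate of choroid plexus markers was added after the data had been seen.

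The members, their 8 roles, the pathway list and the marker lists were chosen with earlier results of these data known. All members may be named, and values in every library are given for the 3 with the highest mean CPM in each role and for Ifi44, which was added after its values had been seen. Pathway genes are named where called or most abundant in their role, and Ifnar1, Ifnar2 and Tyk2 are named besides as parts of the receptor. Cxcl10 was added after its values had been seen, as were the non-member genes named among those raised in Ant-134 replicate 1. Values of 1 gene of the pathway list are not reported here. Gene positions are from the annotation deposited with the counts, and transcript sequences for the 75-base windows from GENCODE M21. Promoters and microRNAs are from RefSeq, and all are on GRCm38. Figures were drawn with matplotlib 3.10.9.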

Additional observations from a re-analysis of the deposited data

Results flagged for a closer look

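Within each group, the highest or lowest library was compared with the gap and range of the others by Dixon's criterion. Independent normal values meet it in about 1 of 20 groups. Of 148 groups of values, 30 met it, and 22 of the 30 were high values in Ant-134 replicate 1. The genes share the same libraries and were chosen with these data known, so these are not independent and the count is no test. All levels below are CPM, with the library named and the range of the rest of its group.

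Among the sensors and factors, Ant-134 replicate 1 stood apart in Ddx58 (23.5, the rest 6.06 to 10.8), Irf7 (52.01, the rest 8.58 to 20.1) and Stat2 (60.7, the rest 37.4 to 40.9). The same library stood apart in the ISG15 and IFIT genes Isg15 (15.5, the rest 4.13 to 7.07), Usp18 (17.8, the rest 2.35 to 6.16), Herc6 (10.4, the rest 4.10 to 5.89), Ifit1 (27.6, the rest 4.06 to 8.68) and Ifit3 (53.05, the rest 9.22 to 17.7).

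Of the restriction factors it stood apart in Mx1 (10.7, the rest 1.89 to 4.09), Mx2 (16.1, the rest 3.34 to 3.86), Rsad2 (10.9, the rest 1.74 to 4.39) and Bst2 (46.5, the rest 10.4 to 17.4). It did so as well in Parp9 (12.2, the rest 4.65 to 6.29), Parp12 (24.7, the rest 11.4 to 14.2), Ifi27 (50.1, the rest 27.01 to 32.03), Ifi35 (7.59, the rest 3.70 to 4.05) and Ifi44 (26.9, the rest 5.13 to 10.6). The last members were Rtp4 (15.8, the rest 3.70 to 5.01), Lgals3bp (79.9, the rest 21.01 to 29.9) and Phf11d (3.84, the rest 0.962 to 1.38). Outside the members it was apart in Nlrc5 (5.67, the rest 1.64 to 2.49) and in the choroid plexus sum (2551, the rest 67.4 to 676).

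Ant-134 replicate 3 was low in Oas3 (0.925, the rest 2.16 to 2.26) and in the monocyte and neutrophil sum (18.3, the rest 43.5 to 53.6), and high in the erythrocyte sum (403, the rest 69.02 to 116) and in Ifnk (0.0712, the rest 0), a ligand gene below the filter. Ant-134 replicate 4 was high in Ptpn6 (13.9, the rest 10.4 to 10.9). In Scr, replicate 2 was low in Ifit1 (11.5, the rest 14.1 to 14.5), replicate 1 high in Trim30a (11.6, the rest 9.03 to 9.46) and replicate 3 high in Trafd1 (72.2, the rest 67.7 to 68.04).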

How the results depend on the processing

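The median log2 fold change of the members was below 0 in every alternative run, between -0.69 and -0.17 with 1 library left out, -0.33 with the choroid plexus covariate, -0.24 on log2(FPKM + 1) and -0.42 on log2(FPKM + 0.1). With 1 library left out, members called lower ranged from 0 to 39, beside 435 to 704 of all genes. Genes called higher ranged from 194 to 386, pathway genes called lower from 4 to 17 and pathway genes called higher from 0 to 1. Members called lower were 2 in DESeq2, 12 with the Y-linked covariate, 4 on log2(FPKM + 1) and on log2(FPKM + 0.1), 3 on log2(FPKM + 1) with no filter, 1 (Trim21) with no filter on counts and 2 (Oasl2 and Ifi27l2a) without robust estimation, where 1 pathway gene was higher. The cause was not tested. With no filter, genes called lower were 1211 in edgeR and 935 in limma and genes called higher 564 and 532, where more genes were tested. Genes called higher were 450 on log2(FPKM + 1) and 471 on log2(FPKM + 0.1).

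The replicate numbers did not pair the samples, since same-numbered libraries correlated at -0.12, -0.070, -0.022 and 0.012. With the number as a block, 6 members were called lower, the median over all 46 members was -0.38, and 466 genes were lower and 342 higher.

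By role, the level of a library moved from its value over all members to 1.38 for IFIT genes in Ant-134 replicate 1, in Scr replicate 1 to 0.28 for Mx GTPases and restriction factors and 0.26 for PARP and TRIM genes, in Scr replicate 2 to 0.34 for OAS genes and 0.38 for the other inducible genes, in Scr replicate 3 to -0.025 for transcription factors and 0.33 for IFIT genes, and in Scr replicate 4 to 0.36 for OAS genes.

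Small log2 fold changes changed sign. With 1 library left out, Ifit2 ranged from -0.21 to 0.10, Ifit3b from -0.83 to 0.015, Oas2 from -0.34 to 0.066, Mx2 from -0.90 to 0.026, Cmpk2 from -0.18 to 0.061, Samd9l from -0.43 to 0.034, Slfn2 from -0.31 to 0.017, Ifngr2 from -0.016 to 0.046, Adar from -0.054 to 0.014, Irf2 from -0.032 to 0.035, Ptpn11 from -0.012 to 0.028 and Trafd1 from -0.044 to 0.011. Ifit2 was 0.0016 in DESeq2, 0.00043 with DESeq2's size factors and 0.012 with the choroid plexus covariate, and the replicate block turned Cmpk2 to 0.048, Adar to 0.013 and Irf2 to -0.0034.

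Depth was ample for the members, with at least 19 counts in every library, but not for the interferon genes themselves, with at most 4. The groups held 5 and 4 mice, the tissue was bulk hippocampus, and every mouse had been injected and tested.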

Other observations

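Of the 100 genes with the largest excess of Ant-134 replicate 1 over the mean of the other Ant-134 libraries, on the log2 CPM scale, 82 were neither members nor on the pathway list, and 2 of the 54 pathway genes tested were among the 100. The choroid plexus genes Aqp1 and Otx2 had an excess of 2.41 and 2.15. The genes below are 11 of the 82, picked after their values had been seen, and no list of such genes was tested. The GTPase genes Tgtp1, Irgm2, Igtp, Gbp3 and Iigp1, which type II interferon also raises, had an excess of 1.92, 1.67, 1.29, 1.32 and 1.04. The class I antigen genes H2-Q6, H2-Q7 and H2-Q4 had an excess of 1.87, 1.35 and 1.17, and the chemokine gene Cxcl11 of 1.04. The complement gene C3 and the acute phase gene Lcn2, which respond to other inflammatory signals too, had an excess of 1.94 and 1.63 in that library.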
